A study of Mus musculus with 7 samples.

Results

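The MyoD family factors Myod1, Myog, Myf5 and Myf6, the E proteins Tcf3, Tcf4 and Tcf12 and the inhibitor Mdfi were chosen by gene symbol from the expression table of C2C12 cells depleted of lnc-SMaRT. Of these 8 genes, 6 have a row among the 11642 rows of the table. Myf6 and Mdfi have no row in the table and were not analysed here. C2C12 is a mouse myoblast line, and its cells fuse to myotubes after serum withdrawal. All samples were C2C12 cells on day 2 of differentiation. Total RNA depleted of rRNA was sequenced in 2 samples treated with scramble siRNA (si-SCR) and 2 samples treated with a single siRNA against the muscle long non-coding RNA lnc-SMaRT (si-SMaRT), from independent cell populations per the methods. RNA from a pull-down with probes against lnc-SMaRT and RNA from a control pull-down with LacZ probes were sequenced in 1 library each. The study depleted lnc-SMaRT to ask how the differentiation program responds, and the present comparison reads that response in the factors that drive the program. The paper also measured MyoD and Myog after depletion by qPCR and Western blot and reported them as not affected. It reported late markers, among them Mef2C and Mck (Ckm), as downregulated. Those measurements were not analysed here.

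MyoD (Myod1), Myf5, myogenin (Myog) and MRF4 (Myf6) are the basic helix-loop-helix factors that commit cells to the muscle lineage and then switch on muscle genes. Each binds DNA as a dimer with an E protein, at an E-box with the sequence CANNTG, and activates genes such as those of the contractile apparatus and the acetylcholine receptor. Myod1 and Myf5 act in myoblasts, whereas Myog is switched on early in differentiation. The E proteins E2A (Tcf3), E2-2 (Tcf4, which is not the Wnt effector Tcf7l2) and HEB (Tcf12) are expressed in many tissues. Id proteins hold E proteins in dimers that cannot bind DNA, and I-mfa (Mdfi) keeps MyoD family factors out of the nucleus.

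In GENCODE M21 (GRCm38), Myod1 lies at chr7:46376474-46379099 and Myog at chr1:134289989-134292548, both on the plus strand. Myf5 (chr10:107482908-107486134) and Myf6 (chr10:107492853-107494737) are neighbours on the minus strand. Tcf3 (chr10:80409514-80433647), Tcf12 (chr9:71842688-72111871) and Mdfi (chr17:47815328-47834691) are also on the minus strand. The 300-base RefSeq promoter table of GRCm38.p6 (250 bases before to 50 bases after each start) holds entries for Myog, Myf5, Tcf3, Tcf12 and Mdfi.

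The stretches upstream of Myog and Myf5 are shown because the Myog promoter holds an E-box and that of Myf5 holds none. They end before the transcript start of both annotations, and capitals mark CANNTG, a pattern that reads the same on both strands.
Myog (chr1:134289754-134289988, plus strand): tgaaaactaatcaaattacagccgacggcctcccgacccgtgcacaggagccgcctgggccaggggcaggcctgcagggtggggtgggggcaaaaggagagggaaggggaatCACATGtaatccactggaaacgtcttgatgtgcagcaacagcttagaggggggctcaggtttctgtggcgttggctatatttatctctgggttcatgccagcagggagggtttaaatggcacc
Myf5 (chr10:107486135-107486384, minus strand): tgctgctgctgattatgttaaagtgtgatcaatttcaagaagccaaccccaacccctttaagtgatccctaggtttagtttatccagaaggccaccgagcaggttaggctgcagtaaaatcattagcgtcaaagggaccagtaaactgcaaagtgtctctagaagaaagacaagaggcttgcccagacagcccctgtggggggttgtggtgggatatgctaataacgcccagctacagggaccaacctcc
The E-box CACATG in the Myog promoter begins 138 bases before the start. A second match, CAGTTG, begins 12 bases before the RefSeq start, past the printed stretch. CANNTG was found in 72.3% of all 32851 promoters of this length, so a single match is common.

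The list of MyoD and myogenin targets used further on holds 20 genes, of which 16 have promoters in the table. Of their 20 promoters, 18 (90.0%) hold CANNTG. The E-box CAGCTG, which is also counted in CANNTG, was found in 10 of these promoters (50.0%) against 16.3% of all promoters. Counted by gene, it was found in 9 of 16 targets and in 4944 of all 27025 genes, because overlapping promoters of Tnni1 hold the same match. The matches that lie wholly before a start are printed in capitals with up to 10 bases on each side, on the strand of the gene.
Myl1 (chr1:66945265-66945290, minus strand, motif 224 bases before the start): gtacgtctgtCAGCTGtcaccaaacc
Des (chr1:75360246-75360271, plus strand, motif 36 bases before the start): agggatcctgCAGCTGtcaggggagg
Chrng (chr1:87205646-87205671, plus strand, motif 155 bases before the start): atcctgggaaCAGCTGacaatgcagt
Chrng (chr1:87205669-87205694, plus strand, motif 132 bases before the start): agtggtcagaCAGCTGgtggggccag
Tnni1 (chr1:135799343-135799368, plus strand, motif 68 bases before the start): gaaggaggggCAGCTGgaggggcagc
Chrna1 (chr2:73580415-73580440, minus strand, motif 92 bases before the start): gtgggcagctCAGCTGtcatgcgggc
Chrna1 (chr2:73580367-73580392, minus strand, motif 44 bases before the start): gctgtggagtCAGCTGgcttccaagg
Cav3 (chr6:112459389-112459414, plus strand, motif 106 bases before the start): ccttcttgggCAGCTGctcctgggag
Ckm (chr7:19410844-19410860, plus strand, motif 249 bases before the start): cCAGCTGtcccccgcca
Acta1 (chr8:123894981-123895006, minus strand, motif 221 bases before the start): gaggggcagaCAGCTGgggatactct
These are matches of letters and not measured binding sites. The motif falls in the acetylcholine receptor subunit genes Chrna1 and Chrng, each with a pair of matches, but not in the subunit gene Chrnb1. It also falls in genes for desmin (Des), caveolin 3 (Cav3), muscle creatine kinase (Ckm), skeletal actin (Acta1), a myosin light chain (Myl1) and a troponin (Tnni1).

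The knock-down was read first. In units of RPKM (reads per kilobase of gene, scaled to the size of the library), lnc-SMaRT was at 19.1 and 15.9 in the si-SCR samples and at 2.88 and 3.65 in the si-SMaRT samples. The log2 fold change was -2.39 (SE 0.28, adjusted p = 0.000882, limma). The effective library sizes ranged from 11291255 to 14312935 reads. Of 8 skeletal muscle markers, all had a row and all were below 0 in log2 fold change, with summed levels of 9826 to 9915 RPKM in si-SCR and 4382 to 6519 RPKM in si-SMaRT. None of 4 adipocyte and 4 endothelial markers had a row. Of 4 neuronal markers Tubb3 had a row, at 13.6 to 24.1 RPKM, and of 4 haematopoietic markers Cd68 had one, at 0.788 to 1.13 RPKM. Fewer cells of a type and less RNA per cell cannot be told apart in these bulk samples.

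The 2 si-SMaRT samples differed from each other more than the 2 si-SCR samples did. The median absolute log2 difference between replicates was 0.42 in si-SMaRT and 0.18 in si-SCR. The signed difference, replicate 2 minus 1, followed the GC content of the genes in both groups, in opposite directions. From genes under 40% GC to genes above 60% GC, its median went from 0.73 to -1.01 in si-SMaRT. In si-SCR it went from -0.13 to 0.16, a weaker trend. The values were therefore read both as deposited and after each sample's trend with GC content had been removed. The paper's rRNA and tRNA filter removed a far larger share of read pairs from the first si-SMaRT replicate than from any other sample. Whether this loss is linked to the GC trend or to the spread of the si-SMaRT samples was not tested. Whether the GC trend has a technical or a biological source was not tested either.

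Myog, the activator of terminal differentiation, was the most abundant of the 6 genes by a wide margin. Its level was 1015 and 1114 RPKM in the si-SCR samples and 923 and 640 RPKM in the si-SMaRT samples. Both si-SMaRT values were below both si-SCR values. The means were 1064 ± 70.0 and 781 ± 200 RPKM (SD, n = 2 each), a ratio of 0.734. The log2 fold change of -0.47 (SE 0.30, 95% confidence interval -1.10 to 0.17) did not pass the test (adjusted p = 0.696, limma). The depth behind it was high, with 13690 to 23532 reads per sample, so that counting error (± 1.68% at the lowest count) was far below the spread between replicates.

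Myod1, the myoblast determination factor, was at 54.8 and 70.1 RPKM in si-SCR and at 95.9 and 57.7 RPKM in si-SMaRT. The groups overlapped, because si-SMaRT 2 lay between the si-SCR samples. The means were 62.5 ± 10.8 and 76.8 ± 27.0 RPKM (SD, n = 2 each), with a log2 fold change of 0.26 (SE 0.29, 95% confidence interval -0.36 to 0.88, adjusted p = 0.857, limma). Without si-SMaRT 1 the log2 fold change was -0.10, and without si-SMaRT 2 it was 0.63 and passed the test (adjusted p = 0.0389, limma), in a fit in which 8.49% of all rows passed.

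Myf5, the other early determination factor, was at 29.6 and 22.2 RPKM in si-SCR and at 18.8 and 34.8 RPKM in si-SMaRT. The si-SCR values lay between the si-SMaRT values. The means were 25.9 ± 5.27 and 26.8 ± 11.4 RPKM (SD, n = 2 each), and the 95% confidence interval of the log2 fold change was -0.66 to 0.65. Myf5 had 441 to 1039 reads per sample, or a counting error of ± 9.33% at the lowest count.

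Tcf3, which encodes the E2A proteins E12 and E47, was at 13.2 and 13.8 RPKM in si-SCR and at 18.7 and 9.72 RPKM in si-SMaRT. The si-SCR samples lay close together and the si-SMaRT samples lay on either side of them. The means were 13.5 ± 0.410 and 14.2 ± 6.37 RPKM (SD, n = 2 each), with a 95% confidence interval of the log2 fold change of -0.65 to 0.65.

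Tcf4, which encodes E2-2, was at 14.3 and 16.6 RPKM in si-SCR and at 16.4 and 23.3 RPKM in si-SMaRT. The groups overlapped, with si-SMaRT 2 as the highest sample. The log2 fold change was 0.34 (SE 0.28, 95% confidence interval -0.24 to 0.92, adjusted p = 0.797, limma). Without si-SMaRT 1 it was 0.59 and passed (adjusted p = 0.0195, limma), in a fit in which 26.2% of all rows passed.

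Tcf12, which encodes HEB, was at 14.2 and 15.1 RPKM in si-SCR and at 16.2 and 19.3 RPKM in si-SMaRT. Both si-SMaRT values were above both si-SCR values, with means of 14.7 ± 0.636 and 17.8 ± 2.17 RPKM (SD, n = 2 each). The log2 fold change of 0.27 (SE 0.26, 95% confidence interval -0.29 to 0.83) did not pass the test (adjusted p = 0.837, limma).

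**Figure D1:**
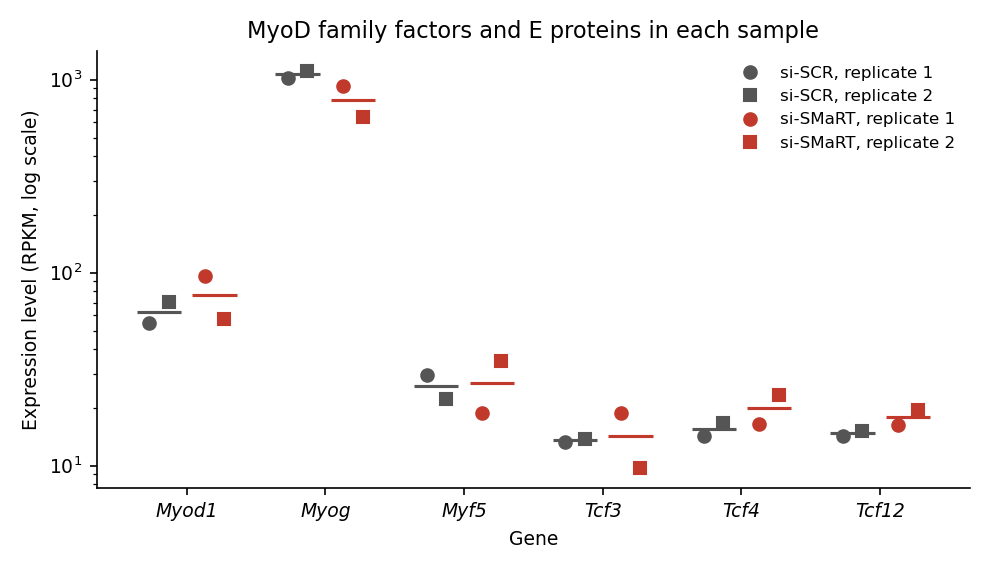
Level in RPKM (log axis) of the 6 genes with a row, for si-SCR (grey) and si-SMaRT (red), with circles for replicate 1, squares for replicate 2 and a line at the mean of each group (n = 2). Myog is at 640 RPKM or above in all samples, both si-SMaRT samples are below both si-SCR samples for Myog and above them for Tcf12, and the groups overlap for the other 4 genes.

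None of the 6 genes passed the threshold of 0.05 on the adjusted p (limma), where 0.505% of the 11086 rows tested passed, and none had an unadjusted p under 0.05 (9.09% of rows). The groups did not overlap for 2 of the 6 genes, against 40.7% of all rows. Of these, Myog was lower, as were 20.4% of rows, and Tcf12 was higher, as were 20.2% of rows. The median log2 fold change was 0.13 over the 6 genes and 0.02 over all rows.

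The order of the mean levels was Myog, Myod1, Myf5, Tcf4, Tcf12 and Tcf3 in both groups. Levels are per length of annotated exon, so this order and the ranks below depend on the annotation of each gene. In si-SCR, the mean level of Myog was 17.0 times that of Myod1, and that of Myod1 was 2.41 times that of Myf5. The next steps were 1.67 times from Tcf4 to Myf5, 1.05 times from Tcf12 to Tcf4 and 1.09 times from Tcf3 to Tcf12. Only the neighbours Tcf4 and Tcf12 had overlapping ranges there. In si-SMaRT, the mean level of Myog was 10.2 times that of Myod1, and the ranges overlapped for each pair of neighbours below Myod1. Among all rows, Myog had a higher mean level in si-SCR than 99.6% of rows, with 44 rows above it. Myod1 exceeded 92.3% and Myf5 81.8%, and the E proteins exceeded 71.4% (Tcf4), 69.9% (Tcf12) and 67.9% (Tcf3) of rows.

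The difference between the si-SMaRT replicates sorted the 6 genes by base composition. Tcf3, Myod1 and Myog have gene models with 60.8%, 58.9% and 54.8% GC, and were lower in si-SMaRT 2 than in si-SMaRT 1 by log2 differences of -0.94, -0.73 and -0.53. Tcf4, Myf5 and Tcf12 have 42.2%, 41.6% and 39.7% GC, and were higher in si-SMaRT 2, by 0.50, 0.89 and 0.25. The medians of rows within 1 percentage point of GC were -0.99 for Tcf3, -0.82 for Myod1 and -0.53 for Myog. They were 0.50 for Tcf4, 0.56 for Myf5 and 0.65 for Tcf12. Tcf3, Myod1, Myog and Tcf4 thus lay within 0.1 of the median of genes of their composition, whereas Myf5 lay above its median and Tcf12 below.

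**Figure D2:**
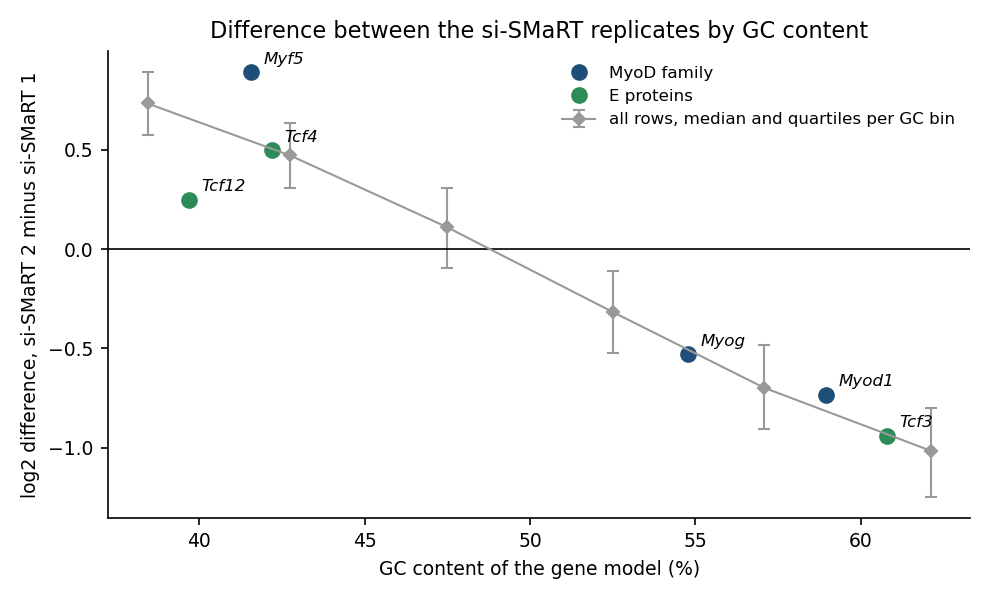
Difference in log2 level between si-SMaRT 2 and si-SMaRT 1 (vertical axis) against the GC content of the gene model in percent (horizontal axis), for the MyoD family (blue), the E proteins (green) and the median with quartiles of all rows in GC bins (grey). The 3 genes above 50% GC lie below 0, between -0.94 and -0.53, and the 3 genes under 45% GC lie above 0, between 0.25 and 0.89.

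With the GC trend removed, the si-SMaRT samples of Myod1 came together above the si-SCR samples. Myod1, Tcf3, Myog and Tcf4 lay near the median replicate difference of genes of their composition. The adjustment itself therefore brings their si-SMaRT samples together, and this closeness is not independent agreement of replicates. The adjusted levels of Myod1 were 55.0 and 62.5 RPKM in si-SCR and 76.2 and 81.1 RPKM in si-SMaRT. The log2 fold change of Myod1 was 0.42 (SE 0.14, 95% confidence interval 0.10 to 0.75, unadjusted p = 0.0163, adjusted p = 0.118, limma). It did not pass over all 10399 rows, where 4.85% passed and 25.1% had an unadjusted p under 0.05. Myog stayed lower, at 1014 and 1029 RPKM in si-SCR and 803 and 792 RPKM in si-SMaRT, with a log2 fold change of -0.36 (adjusted p = 0.354, limma). Its groups did not overlap downward, as was the case for 29% of rows on this scale. The adjusted levels of Tcf3 were 13.1 and 12.1 RPKM in si-SCR and 14.41 and 14.44 RPKM in si-SMaRT, with a log2 fold change of 0.19 (adjusted p = 0.388, limma). Those of Tcf4 were 14.5 and 18.0 RPKM in si-SCR and 18.7 and 18.6 RPKM in si-SMaRT, with a log2 fold change of 0.21 (adjusted p = 0.403, limma). Myf5 (log2 fold change -0.14) and Tcf12 (0.11) overlapped between the groups on this scale. Thus the separation of Tcf12 in the deposited values was lost, and Myod1, Tcf3 and Tcf4 became separated upward, as were 28.4% of all rows on this scale.

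**Figure D3:**
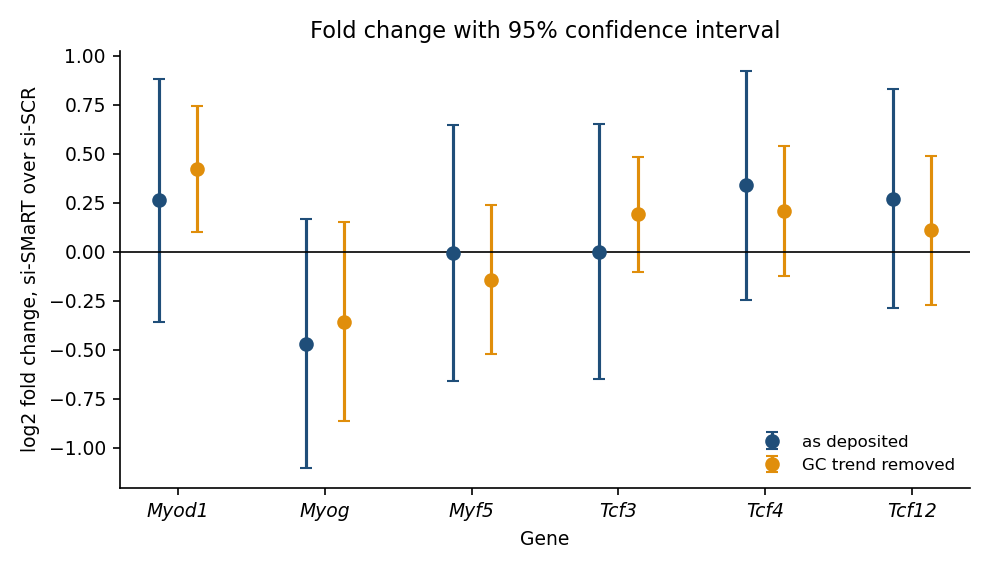
log2 fold change of si-SMaRT over si-SCR (vertical axis) for each gene, from the deposited values (blue) and after removal of the GC trend (orange), with bars for the 95% confidence interval (limma, n = 2 each). All intervals of the deposited values include 0, and with the trend removed only that of Myod1, 0.10 to 0.75, does not.

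RPKM is per length of annotated exon, so levels of different genes set against each other within a sample depend on the annotation. The gene model of Tcf12 has 15529 bases of exon, that of Tcf3 4039, that of Myod1 1861 and that of Myog 1495. Which of these exons the cells use was not analysed, so the size of ratios between genes is uncertain. Myog made up 92.3% and 92.3% of the summed Myod1, Myog and Myf5 level in si-SCR, and 88.9% and 87.4% in si-SMaRT. Myod1 made up 4.99% and 5.82% in si-SCR, and 9.25% and 7.88% in si-SMaRT. The share of Myod1 was therefore higher, and that of Myog lower, in both si-SMaRT samples than in both si-SCR samples. Myf5 took 2.70% and 1.84% in si-SCR and 1.81% and 4.76% in si-SMaRT, with overlapping groups.

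The level of Myog was 18.5 and 15.9 times that of Myod1 in si-SCR, and 9.62 and 11.1 times in si-SMaRT. This ratio was chosen after the values had been seen. Its log2 difference was -0.73 as deposited and -0.78 with the GC trend removed, and the groups did not overlap in either case (exact two-sided permutation test, p = 0.333, the smallest p that 2 against 2 samples allow). The log2 difference ranged from -0.84 to -0.62 with each sample left out in turn.

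The E proteins summed to 41.7 and 45.6 RPKM in si-SCR and to 51.4 and 52.3 RPKM in si-SMaRT, while the MyoD family summed to 1099 and 1206 RPKM in si-SCR and to 1037 and 732 RPKM in si-SMaRT. The ratio of the MyoD family to the E proteins was 26.3 and 26.5 in si-SCR and 20.2 and 14.0 in si-SMaRT. The log2 difference of -0.65 had the smallest p that the design allows (exact two-sided permutation test, p = 0.333). It was -0.47 with the GC trend removed, -0.92 without si-SMaRT 1, -0.39 without si-SMaRT 2, and -0.27 when log2 levels were averaged in place of summing RPKM, so that Myog carried less weight. Within the E proteins, Tcf3 held 31.6% and 30.3% of the sum in si-SCR, and 36.4% and 18.6% in si-SMaRT, so the si-SCR samples lay between the si-SMaRT samples. With the GC trend removed its share was 31.3% and 26.0% in si-SCR and 27.5% and 30.4% in si-SMaRT, and the si-SMaRT samples lay between the si-SCR samples. Tcf4 held 34.3% and 36.5% in si-SCR and 32.0% and 44.5% in si-SMaRT, and Tcf12 held 31.6% to 36.9% in all samples.

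**Figure D4:**
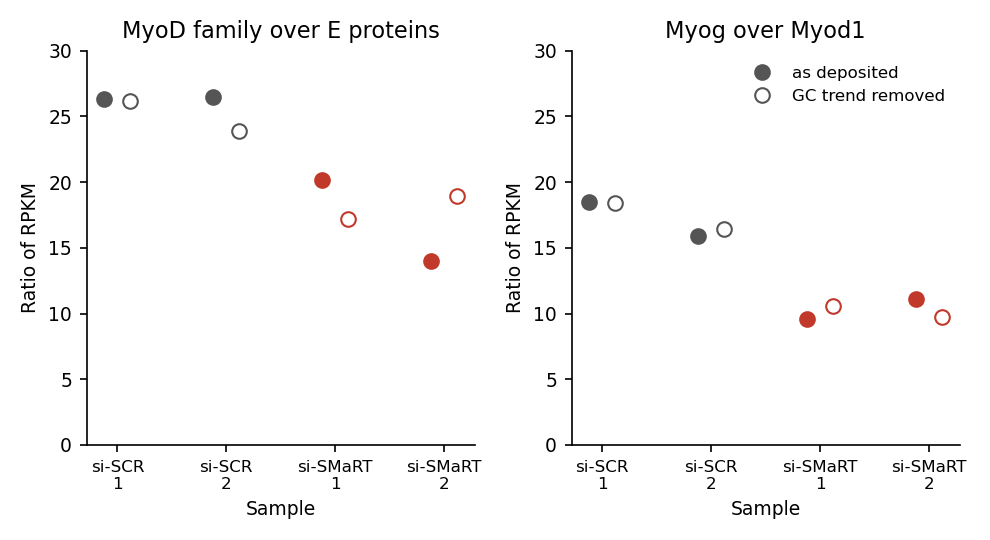
Ratio of RPKM in each sample (vertical axis, from 0), for the summed MyoD family over the summed E proteins (left) and for Myog over Myod1 (right), in si-SCR (grey) and si-SMaRT (red), as deposited (filled) and with the GC trend removed (open). In both panels both si-SMaRT samples are below both si-SCR samples, at 20.2 and 14.0 against 26.3 and 26.5 on the left and at 9.62 and 11.1 against 18.5 and 15.9 on the right.

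Likeness to Myod1 and Myog was measured as the root mean square difference of log2 levels over the 4 samples, each gene centred on its own mean, among 10534 rows of single genes. The genes most like Myod1 were Ipo13 (0.0119), Sorcs2 (0.0206) and Srsf4 (0.0215). Those most like Myog were Ogfod2 (0.0054), Tead2 (0.0109) and Tom1 (0.0147). With only 4 samples such patterns were common, and 256 rows were within 0.1 of Myod1 and 263 within 0.1 of Myog. Likeness was measured on the deposited values, which still hold the GC trend. The genes named as most alike have 54.1% to 58.1% GC, against 58.9% for Myod1 and 54.8% for Myog. How far shared GC content accounts for the likeness was not tested.

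The targets of MyoD and myogenin were mostly lower in si-SMaRT. This list was chosen with earlier results of these data known, so its counts are not an independent check. Of 20 targets tested, 19 had a log2 fold change below 0, whereas 5795 of all 11086 rows lay above 0. Of the targets, 0 passed the test (limma, where 0.325% of rows passed downward), and 10 had an unadjusted p under 0.05 (9.09% of rows). The groups did not overlap downward for 15 of them, against 20.4% of all rows, and the median log2 fold change was -0.64, against 0.02 over all rows. With the GC trend removed, 7 of 20 passed as lower (2.85% of rows) and the median was -0.53. Without si-SMaRT 1 the median was -0.82, and without si-SMaRT 2 it was -0.43. Of the 8 skeletal muscle markers, 4 are also in this list.

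The 3 targets with the highest levels are sarcomere genes. Acta1, skeletal actin, was at 2778 and 3240 RPKM in si-SCR and at 2553 and 1274 RPKM in si-SMaRT (log2 fold change -0.73, SE 0.35). Actc1, cardiac actin, was at 2133 and 2186 RPKM in si-SCR and at 1242 and 1059 RPKM in si-SMaRT (log2 fold change -0.91, SE 0.30). Myh3, embryonic myosin heavy chain, was at 1161 and 1260 RPKM in si-SCR and at 831 and 714 RPKM in si-SMaRT (log2 fold change -0.65, SE 0.29). In each of them both si-SMaRT samples were below both si-SCR samples.

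Further targets with CAGCTG in the promoter were picked after their values had been seen. Ckm, whose promoter match is printed above, was at 676 and 641 RPKM in si-SCR and at 380 and 201 RPKM in si-SMaRT, with a log2 fold change of -1.25 (adjusted p = 0.106, limma). With the GC trend removed Ckm passed (log2 fold change -1.15, adjusted p = 0.028, limma). Chrng, the fetal acetylcholine receptor subunit, was at 81.6 and 95.1 RPKM in si-SCR and at 55.2 and 33.9 RPKM in si-SMaRT, with a log2 fold change of -1.02 (adjusted p = 0.163, limma). It also passed with the GC trend removed (-0.93, adjusted p = 0.020, limma). Of the other targets with CAGCTG, Myl1, Tnni1 and Cav3 passed as lower on that scale, whereas Chrna1, Des, Acta1 and Cdkn1a did not pass. Mef2c and Myl4, whose promoters hold no CAGCTG, passed as lower too (adjusted p = 0.028 and 0.034, limma). A link between the motif and the fold changes was not tested. The one target above 0 was Cdh2, N-cadherin, at 24.8 and 29.2 RPKM in si-SCR and at 31.8 and 38.3 RPKM in si-SMaRT, with a log2 fold change of 0.37 (SE 0.26).

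Among repressors that compete for E proteins or E-boxes, Id3 rose. Of 19 genes listed, 15 were tested, and 10 had a log2 fold change above 0, as did 5795 of all 11086 rows. The test was passed by 1 as higher (0.18% of rows) and by 0 as lower (0.325% of rows). The median was 0.13. Id3, a partner of E proteins that lacks a DNA-binding region, was at 2.91 and 3.20 RPKM in si-SCR and at 12.3 and 7.26 RPKM in si-SMaRT. Both si-SMaRT values were above both si-SCR values, with 66 and 81 reads in si-SCR and 249 and 186 reads in si-SMaRT. The log2 fold change was 1.60 (SE 0.30, adjusted p = 0.0232, limma), and 1.71 with the GC trend removed. The call was lost without si-SCR 1 (adjusted p = 0.716, limma) and without si-SCR 2 (adjusted p = 0.345, limma), with log2 fold changes of 1.53 and 1.67.

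The 3 repressors with the highest levels did not pass. Id2, of the same family as Id3, was at 23.1 and 21.2 RPKM in si-SCR and at 11.3 and 19.3 RPKM in si-SMaRT (log2 fold change -0.58, SE 0.29). Zeb1, a zinc-finger repressor that binds E-boxes, was at 25.0 and 26.6 RPKM in si-SCR and at 24.9 and 31.1 RPKM in si-SMaRT (log2 fold change 0.11, SE 0.26). Bhlhe40 was at 15.1 and 19.8 RPKM in si-SCR and at 13.7 and 13.5 RPKM in si-SMaRT (log2 fold change -0.35, SE 0.27). The levels of Id2 and Id3 thus lay on opposite sides of 0 in log2 fold change, and this difference was not tested. Id1, named for comparison, was at 12.5 and 14.1 RPKM in si-SCR and at 16.5 and 10.5 RPKM in si-SMaRT (log2 fold change -0.011). Of Id1, Id2 and Id3, Id3 had the lowest mean level in both groups, so its rise does not stand for the Id genes together. With the GC trend removed, 14 of the repressors were tested. Of these, Id3 passed as higher (2% of rows). Heyl, a Notch target, passed as lower (2.85% of rows), with a log2 fold change of -0.64 (adjusted p = 0.047, limma). Id4, Msc, Tcf21 and Tal1 had no row.

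Cofactors of MyoD mostly lay above 0, and none passed as deposited. This list too was chosen with earlier results of these data known. Of 20 tested, 19 had a log2 fold change above 0, as did 5795 of all 11086 rows. Of the cofactors, 13 had groups that did not overlap upward (20.2% of rows). The test (limma) was passed by 0 of them, and 2 had an unadjusted p under 0.05 (9.09% of rows). The median was 0.38 as deposited and 0.29 with the GC trend removed. On that scale 2 of 17 passed as higher (2% of rows), among them the arginine methyltransferase Carm1 (log2 fold change 0.74, adjusted p = 0.0277, limma), named after its values had been seen. Mef2a, a MADS-box partner of the MyoD family, was at 67.2 and 84.0 RPKM in si-SCR and at 92.2 and 127 RPKM in si-SMaRT (log2 fold change 0.53, SE 0.28). Its relative Mef2d, also in this list, had a log2 fold change of 0.17. Mef2c, which was placed among the targets, had a log2 fold change of -0.76, with both si-SMaRT samples below both si-SCR samples. The RNA helicase Ddx5, whose row is joined with 2 overlapping genes, was at 256 and 262 RPKM in si-SCR and at 237 and 334 RPKM in si-SMaRT (log2 fold change 0.12, SE 0.28). Its relative Ddx17 was at 65.5 and 72.6 RPKM in si-SCR and at 81.3 and 78.5 RPKM in si-SMaRT (log2 fold change 0.21, SE 0.26).

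Of genes upstream of the MyoD family, 12 of 16 listed were tested. Of these, 7 had a log2 fold change above 0, as did 5795 of all 11086 rows. The test (limma) was passed by 0 (0.505% of rows), and 2 had an unadjusted p under 0.05 (9.09% of rows). The groups did not overlap upward for 5 (20.2% of rows) and downward for 2 (20.4% of rows). The median was 0.12, and with the GC trend removed 1 passed as higher (2% of rows) and 1 as lower (2.85% of rows). Cdon, a cell surface receptor that promotes MyoD activity, was at 32.3 and 36.5 RPKM in si-SCR and at 52.7 and 50.6 RPKM in si-SMaRT (log2 fold change 0.59, SE 0.26). It was the gene that passed as higher with the GC trend removed (log2 fold change 0.58, adjusted p = 0.0467, limma), and the one that passed as lower was Mapk12 (-0.75, adjusted p = 0.0303, limma), which encodes p38 gamma. Megf10, a receptor of muscle progenitors, was at 45.0 and 57.4 RPKM in si-SCR and at 53.1 and 53.7 RPKM in si-SMaRT (log2 fold change 0.071). Tead4, a transcription factor of muscle differentiation, was at 28.9 and 33.3 RPKM in si-SCR and at 27.1 and 20.8 RPKM in si-SMaRT (log2 fold change -0.38, SE 0.27).

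**Figure D5:**
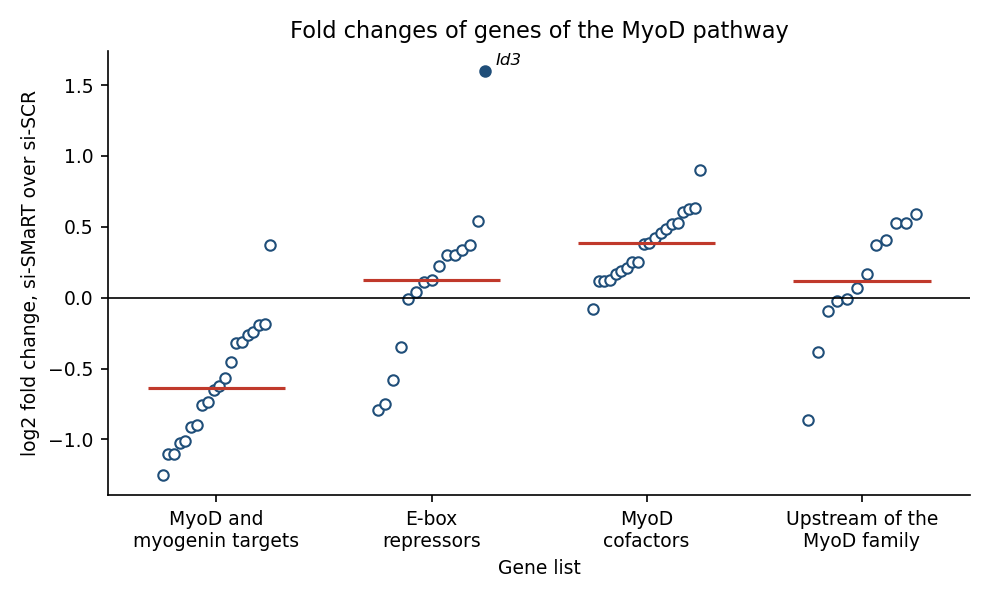
log2 fold change of si-SMaRT over si-SCR (vertical axis) for each tested gene of 4 lists, with filled circles for genes past the adjusted threshold of 0.05, open circles for the others and a red line at the median of the list. Id3 at 1.60 is the one filled circle, the targets lie below 0 except for Cdh2, and the cofactors lie above 0 except for 1.

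The pull-down lists were searched for RNA of the 8 genes bound with lnc-SMaRT. Neither the 345 lnc-SMaRT peaks nor the 336 LacZ peaks overlapped the span of any of them, on either strand. The share of all genes that hold a peak was not counted. Lists this short can reach only a small part of the 11642 rows of the expression table. The lack of a peak is therefore nothing particular to these 8 genes. The lnc-SMaRT peak nearest to Myog was 88989 bases away. For LacZ, the methods name only peaks with the input as covariate. The labels do not say whether the lnc-SMaRT list was called with the input as covariate or against LacZ. What the lack of a lnc-SMaRT peak means depends on this choice, which is not known here. With 1 library per pull-down there is no replicate check, and the depth behind the lists was not analysed here, so an interaction below their detection limit is not addressed.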

How the data were processed

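Per the labels and methods, the authors trimmed reads (Trimmomatic), filtered out rRNA and tRNA (Bowtie2), aligned to GRCm38 (TopHat2), counted Ensembl 77 genes with HTSeq, removed low genes, and deposited RPKM from edgeR with TMM-normalized libraries. The authors called peaks with a p-value per 200-base bin. Members and lists were chosen with earlier results of these data known.

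Here limma 3.58.1 (R 4.3.3, eBayes with trend) was run on log2(RPKM + 0.1) over 11086 rows whose mean RPKM reached 0.5. P-values were adjusted over all rows by Benjamini-Hochberg, with a threshold of 0.05. Fold changes are on that scale and understate changes of low genes. Reads per value were worked out from RPKM steps (11626 rows), with the common factor set by a gene model for 6297. Counting errors are 95% Poisson half-widths and cover counting only. GC content came from GENCODE M21 and GRCm38, and each sample's trend was removed by loess (span 0.3). The 3 most abundant genes and every gene past the threshold were named per list. Python 3.11.15 was used elsewhere. The test was also tried on simulated counts with equal spread in both groups and no GC trend. The real samples differ from this, so the trial does not show how the test behaves on them. Values of 1 withheld gene are left out of the text.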

Additional observations from a re-analysis of the deposited data

How the results depend on the processing

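As deposited, 56 genes passed the threshold of 0.05. The count was 37 with quantile normalization, 112 with voom on recovered reads, 504 with the GC trend removed, and 24 to 2908 with each sample left out in turn. In the last case the lone sample of a group is assumed to vary like the others. The replicate number as a block gave 96, and 306 with the GC trend removed as well. The replicate differences of the groups correlated at -0.36 across 11086 rows, so a crossed block was added after the values were seen, which gave 487. No block changed a call of the 6 genes. Left out in turn, log2 fold changes ranged from -0.10 to 0.63 for Myod1, -0.73 to -0.20 for Myog, -0.45 to 0.44 for Myf5, -0.47 to 0.47 for Tcf3, 0.091 to 0.59 for Tcf4 and 0.15 to 0.40 for Tcf12. Myog was at -0.13 with quantile normalization. The sign near 0 turned for Myf5 (0.024 with quantile normalization, 0.0062 with voom) and Tcf3 (-0.00011 with a pseudocount of 0.01, -0.0092 with voom). The cause of these shifts was not tested.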
